A study of Mus musculus with 6 samples.

Results

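Transcripts of 10 genes of purinergic and adenosine signaling were followed in tumor-associated macrophages (TAMs) with and without a myeloid deletion of Pdcd1, the gene of the inhibitory receptor PD-1. The genes were taken by symbol, from a list drawn up with earlier results of these data known. They were the ATP-gated channels P2rx4 and P2rx7, the G protein-coupled nucleotide receptors P2ry6, P2ry12, P2ry13 and P2ry14, the ectonucleotidases Entpd1 (CD39) and Nt5e (CD73), and the adenosine receptors Adora2a and Adora2b. All 10 of the 10 symbols were found among the 55421 Ensembl genes of the count table, and all passed the filter on low counts. TAMs were sorted as live CD45+CD11b+F4/80+Ly6G− cells from implanted MC17-51 fibrosarcomas, named M17 in the labels, at day 15. The 3 Pdcd1f/f libraries came from mice with a floxed Pdcd1 gene and no Cre. The 3 Pdcd1f/fLysMcre libraries came from mice with the same floxed gene and Cre expressed from the lysozyme (LysM, Lyz2) promoter, which is active in monocytes, macrophages and neutrophils. The labels do not say whether a library was made from 1 mouse or from pooled mice, so p-values measure the spread between these libraries. Each library held both Xist and Y-linked transcripts, as given below, so n = 3 counts libraries and need not count mice.

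ATP and other nucleotides leave stressed, dying or activated cells and are read by P2X channels, which admit cations when ATP binds, and by P2Y receptors, each with its own preferred nucleotide. CD39 on the cell surface removes phosphates from ATP and ADP to leave AMP, and CD73 converts AMP to adenosine. Adenosine acts on the receptors encoded by Adora2a and Adora2b, which couple to Gs and raise cyclic AMP, and it is known as a restraint on leukocytes in tumors.

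Transcripts of P2ry14, P2ry13 and Entpd1 fell, and those of Nt5e rose, in Pdcd1f/fLysMcre TAMs. P2ry14 changed most among the 10 genes and was 1.98-fold lower. Of the 10 genes, 4 passed an adjusted p threshold of 0.05 in edgeR's two-sided quasi-likelihood test, 1 of them higher and 3 lower. In the same test 786 of 14469 genes passed, or 5.43%, with 2.42% higher and 3.01% lower. The libraries of the genotypes did not overlap for any of the 10 genes, against 27.2% of all genes tested. Every library of Pdcd1f/fLysMcre lay below those of Pdcd1f/f for 7 genes (13.1% of all genes) and above them for 3 (14.1% of all genes). The median log2 fold change (Pdcd1f/fLysMcre over Pdcd1f/f) was −0.24 over the 10 genes and −0.003 over all genes tested. These counts moved with the processing. DESeq2 with Storey q-values, the tools named in the methods of the study, placed 8 of the 10 genes past the threshold. In the same fits 10.7% of the genes of the normalized table passed, or 4.17% when run over all genes with at least 1 count. With each library left out in turn, between 2 and 8 of the 10 passed: 2 without Pdcd1f/f replicate 2 or Pdcd1f/fLysMcre replicate 2, where 1.51% and 2.5% of all genes passed, and 8 without Pdcd1f/f replicate 1, where 21.6% did.

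**Figure D1:**
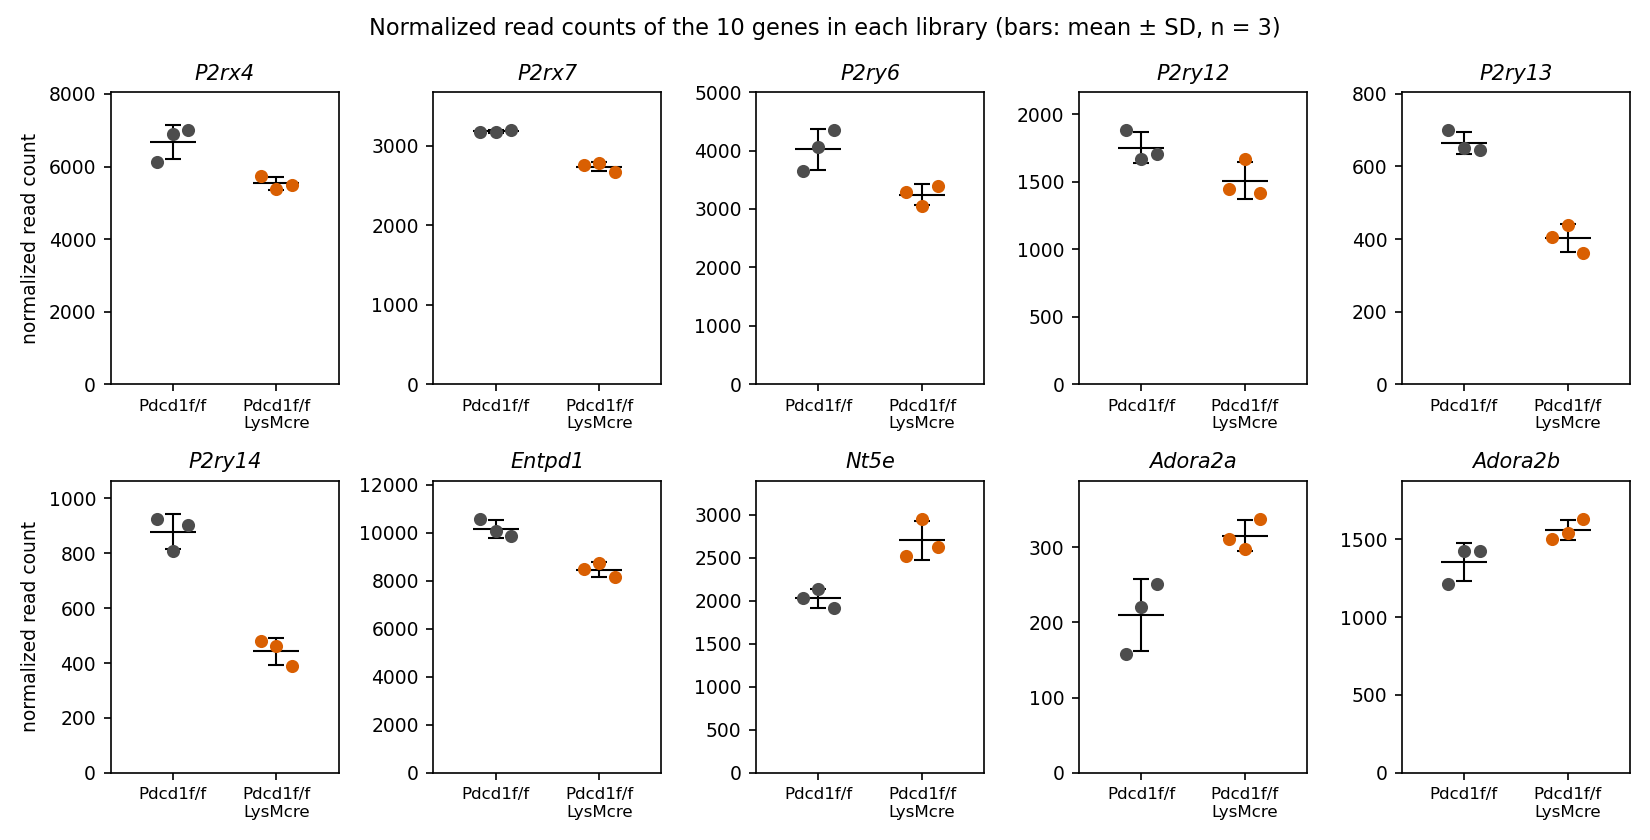
Normalized read counts of the 10 genes, with 1 point for each library, grey for Pdcd1f/f and orange for Pdcd1f/fLysMcre, and bars for the mean ± SD of 3 libraries. Each vertical axis starts at 0. The 2 genotypes do not overlap in any panel, with the narrowest gap for P2ry12, and P2ry14 shows the largest relative drop.

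Library totals lay between 41833823 and 51417209 counts. The deletion itself could not be checked, since Pdcd1 had between 7 and 16 counts per library and did not differ past the threshold (log2 fold change −0.25, adjusted p = 0.771, edgeR). Lyz2, which the LysM-Cre allele interrupts, fell from 216900 ± 8640 to 427 ± 33.4 normalized counts (SD, n = 3). All Pdcd1f/fLysMcre libraries carried Cre and this loss, and no Pdcd1f/f library did. Deletion of Pdcd1, Cre and the loss of Lyz2 thus cannot be told apart in any value below. Lyz1, which lies next to Lyz2, rose from 155.7 ± 25.9 to 3625 ± 179 (SD, n = 3, adjusted p = 8.75e-09, edgeR). Macrophage markers were abundant in every library, with a sum of 7 markers other than Lyz2 between 252800 and 294600 normalized counts in Pdcd1f/f and between 214900 and 227900 in Pdcd1f/fLysMcre, and 5 of 8 macrophage markers with Lyz2 included passed the threshold, all lower. The part of these marker shifts in the results was not tested. The 4 B cell and 4 NK cell markers were too low to be tested. Summed neutrophil markers were between 4220 and 4531 and between 3817 and 3947 normalized counts, and those of dendritic cells between 221.2 and 302.3 and between 284.8 and 360.8. Of 5 neutrophil markers that could be tested, 3 had positive and 2 negative log2 fold changes. Csf3r alone passed the threshold, lower at −0.51 (adjusted p = 0.00686, edgeR), so the lower neutrophil sum did not hold for each marker. The summed counts of 4 Y-linked genes were between 1545 and 1914 in Pdcd1f/f and between 6267 and 7233 in Pdcd1f/fLysMcre. Xist fell from 20830 ± 4970 to 10470 ± 2390 (SD, n = 3), and no library had fewer than 8530. Every library thus held Xist and Y-linked transcripts together, so cells of both sexes were present in each. Genotype and the share of male cells cannot be told apart in any value below. All 10 genes are autosomal. Each library's deviation from the mean of its own genotype was set against the GC content of genes by rank correlation. Within Pdcd1f/f, replicate 1 stood apart at −0.76, against 0.516 and 0.704. Within Pdcd1f/fLysMcre, replicate 2 stood apart at −0.697, against 0.187 and 0.714. These values are relative to the 3 libraries of a genotype and cannot be compared between genotypes. With both libraries that stood apart left out, 9 of the 10 genes passed the threshold, as did 26.2% of all genes tested.

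Levels of different genes can be set side by side only per length, as fragments per kilobase of exon, scaled to library totals (FPKM). In Pdcd1f/f TAMs Entpd1 had the highest level, 38.8 ± 1.5 FPKM (SD, n = 3). It was followed by P2ry6 at 29.7 ± 2.5 and P2rx4 at 20.2 ± 1.4 FPKM. Adora2b at 15.6 ± 1.4 FPKM and P2ry12 at 14.6 ± 0.96 FPKM were next, and their ranges overlapped. The CD39 transcript was thus the most abundant of the 10, and that of CD73 was far lower. P2rx7 stood at 11.4 FPKM, P2ry13 at 5.61 ± 0.26 and Nt5e at 5.02 ± 0.31 FPKM. The lowest pair was P2ry14 at 1.69 ± 0.12 and Adora2a at 1.46 ± 0.33 FPKM, again with overlapping ranges. All other neighbours in this order were separated in every library.

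The order shifted in Pdcd1f/fLysMcre TAMs. Entpd1 at 31.9 ± 0.85 FPKM and P2ry6 at 23.7 ± 1.5 FPKM remained first and second. Adora2b at 17.8 ± 0.9 FPKM was above P2rx4 at 16.6 ± 0.57 FPKM, although their ranges overlapped. Nt5e at 6.61 ± 0.52 FPKM was above P2ry13 at 3.35 ± 0.29 FPKM, and Adora2a at 2.17 ± 0.16 FPKM above P2ry14 at 0.844 ± 0.087 FPKM, without overlap for either pair. The 2 adenosine receptors differed widely in level: in Pdcd1f/f libraries the level of Adora2b per length was 12.7, 10.7 and 9.41 times that of Adora2a, and in Pdcd1f/fLysMcre libraries it was 8.03, 8.57 and 8.01 times.

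**Figure D2:**
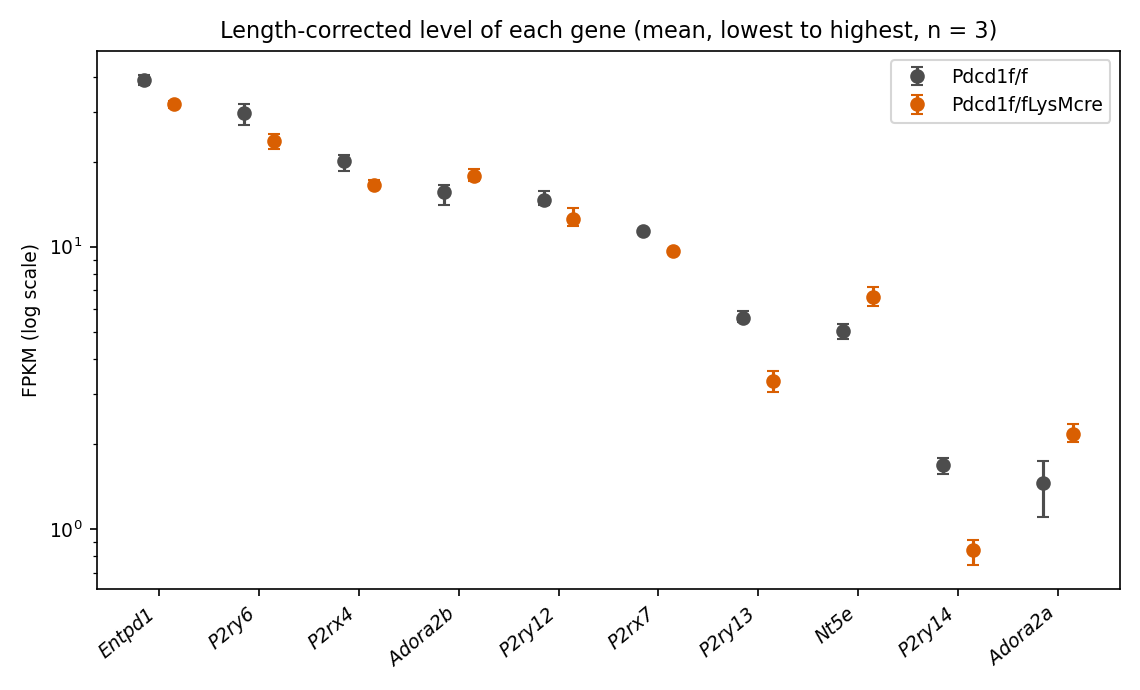
Length-corrected level of each gene in FPKM on a log axis, ordered by the level in Pdcd1f/f (grey) and with Pdcd1f/fLysMcre in orange. Points are means of 3 libraries and bars run from the lowest to the highest library. Entpd1 is highest in both genotypes, and P2ry14 is the lowest gene in Pdcd1f/fLysMcre at 0.844 FPKM.

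P2rx4 and P2rx7, the ATP-gated channels, lie beside each other on chromosome 5 (GRCm38, P2rx7 at chr5:122643911-122691432 and P2rx4 at chr5:122707544-122729738, both on the plus strand). The P2X7 channel opens at high ATP and is known for triggering the NLRP3 inflammasome, and P2X4 responds to lower ATP. P2rx4 had 6127, 6904 and 7004 normalized counts in the Pdcd1f/f libraries, given here and below in the order of replicates 1, 2 and 3. The Pdcd1f/fLysMcre libraries had 5744, 5392 and 5479. For P2rx7 these values were 3174, 3173 and 3198, and 2755, 2789 and 2672. All Pdcd1f/fLysMcre libraries lay below all Pdcd1f/f libraries for both channels. The differences were small. On the log2 scale the fold change was −0.27 (SE 0.07, 95% interval −0.42 to −0.11) for P2rx4 and −0.21 (SE 0.06, −0.35 to −0.08) for P2rx7, and neither passed the threshold (adjusted p = 0.0528 and 0.067, edgeR). Both passed when Pdcd1f/f replicate 1 was left out and in DESeq2.

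Of the 4 receptors of the P2Y class, P2ry13 and P2ry14 passed the threshold, and 3 of the 4 lie in a row on the minus strand of chromosome 3. P2ry14, at chr3:59113855-59153618, encodes the receptor for UDP-glucose and other UDP-sugars. P2ry13, at chr3:59207892-59210882, and P2ry12, at chr3:59216272-59262871, encode Gi-coupled receptors for ADP. P2ry6, the receptor for UDP and known in phagocytes for its part in engulfment, lies apart at chr7:100937630-100974649 on the minus strand.

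The promoters of the 3 receptors on chromosome 3 are shown because P2ry14 and P2ry13 passed the threshold and their neighbour P2ry12 did not, and each window runs from 250 bases before to 50 bases after an annotated start (RefSeq, GRCm38.p6, minus strand). For P2ry14, with 4 starts in the table, the most upstream was taken. Capitals mark GAGGAA on either strand, the purine-rich core bound by PU.1 and other ETS factors of macrophages. The windows are chr3:59153443-59153742 for P2ry14, chr3:59210833-59211132 for P2ry13 and chr3:59262936-59263235 for P2ry12. Gene positions came from another annotation, GENCODE, whose starts can differ. Most of the P2ry14 window lies inside the gene span given above, and the P2ry12 window lies wholly outside its own.
P2ry14: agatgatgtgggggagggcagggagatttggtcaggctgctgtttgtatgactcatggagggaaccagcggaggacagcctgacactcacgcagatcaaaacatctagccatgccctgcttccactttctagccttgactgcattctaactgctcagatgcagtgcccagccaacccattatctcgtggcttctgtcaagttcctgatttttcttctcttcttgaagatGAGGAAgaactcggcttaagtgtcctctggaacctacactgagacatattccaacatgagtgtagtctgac
P2ry13: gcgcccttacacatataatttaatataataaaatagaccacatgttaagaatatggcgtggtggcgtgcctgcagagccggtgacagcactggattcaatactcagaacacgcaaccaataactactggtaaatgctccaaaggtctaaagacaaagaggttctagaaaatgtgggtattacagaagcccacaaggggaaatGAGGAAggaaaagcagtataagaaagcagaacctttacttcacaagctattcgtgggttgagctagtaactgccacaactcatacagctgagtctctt
P2ry12: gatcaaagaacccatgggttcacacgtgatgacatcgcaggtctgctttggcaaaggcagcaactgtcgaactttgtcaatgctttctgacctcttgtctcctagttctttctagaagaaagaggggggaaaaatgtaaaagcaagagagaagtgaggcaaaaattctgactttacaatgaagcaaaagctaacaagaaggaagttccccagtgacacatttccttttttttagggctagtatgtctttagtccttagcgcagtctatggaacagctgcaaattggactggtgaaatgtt
GAGGAA began 21 bases before the start in P2ry14 and 48 bases before it in P2ry13, and it was not in the P2ry12 window. It was in 3 of the 8 windows found for the 10 genes, the third being that of P2rx7, 10 bases after the start. Of all 32851 promoter windows of this length, 28.3% held it. Both GC content and CpG number were low in these 3 windows: 49.3%, 42.3% and 42.3% GC with 4, 6 and 4 CpG for P2ry14, P2ry13 and P2ry12, against medians of 52.7% and 7 over all windows. A match is a description of the letters and says nothing of binding.

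P2ry14 had 926.4, 806.7 and 902.5 normalized counts in the Pdcd1f/f libraries. It had 479.3, 463.8 and 387.4 in the Pdcd1f/fLysMcre libraries. Every Pdcd1f/fLysMcre library was thus far below the lowest Pdcd1f/f library. The mean fell from 878.5 ± 63.4 to 443.5 ± 49.2 (SD, n = 3), a log2 fold change of −0.98 (SE 0.105, 95% interval −1.22 to −0.75, adjusted p = 0.000602, edgeR). P2ry14 ranked 51 by p among the 14469 genes tested. It passed the threshold in 17 of 17 alternative settings, with log2 fold changes between −1.12 and −0.90. An exact two-sided permutation test gave p = 0.1, the smallest value that 3 libraries against 3 allow, for this gene and for the other 9.

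P2ry13 had 700.1, 650.3 and 645.1 normalized counts in the Pdcd1f/f libraries. The Pdcd1f/fLysMcre libraries held 406.2, 439 and 362.8. Here too the genotypes were well separated. A log2 fold change of −0.72 (SE 0.10, 95% interval −0.94 to −0.50, adjusted p = 0.00265, edgeR) made the transcript 1.65-fold lower, and the threshold was passed in 17 of 17 alternative settings. P2ry12, which encodes the receptor targeted by clopidogrel and is a known marker of microglia, had 1881, 1669 and 1703 normalized counts in Pdcd1f/f and 1442, 1668 and 1416 in Pdcd1f/fLysMcre. Pdcd1f/fLysMcre replicate 2 almost reached the lowest Pdcd1f/f library. The log2 fold change of P2ry12 was −0.21 (SE 0.09, 95% interval −0.40 to −0.02, adjusted p = 0.161, edgeR). With a correction for GC content and gene length it was −0.32 (adjusted p = 0.000552, edgeR), a setting in which 18.1% of all genes passed, and P2ry13 and P2ry14 were at −0.78 and −1.12. Within each library, the level of P2ry14 per length was 0.116 ± 0.00568 times that of P2ry12 in Pdcd1f/f and 0.0679 ± 0.00754 times in Pdcd1f/fLysMcre, and the level of P2ry13 was 0.383 ± 0.00879 and 0.269 ± 0.0133 times that of P2ry12 (SD, n = 3). These ratios were chosen after the values were seen and are given as a description.

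P2ry6 had 3647, 4065 and 4350 normalized counts in Pdcd1f/f and 3288, 3047 and 3394 in Pdcd1f/fLysMcre. All 3 Pdcd1f/fLysMcre libraries were lower. The log2 fold change of −0.31 (SE 0.08, 95% interval −0.48 to −0.13) just missed the threshold (adjusted p = 0.0512, edgeR), and it passed in 12 of 17 alternative settings. With a correction for GC content and gene length it was −0.18, the smallest value of all settings.

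**Figure D3:**
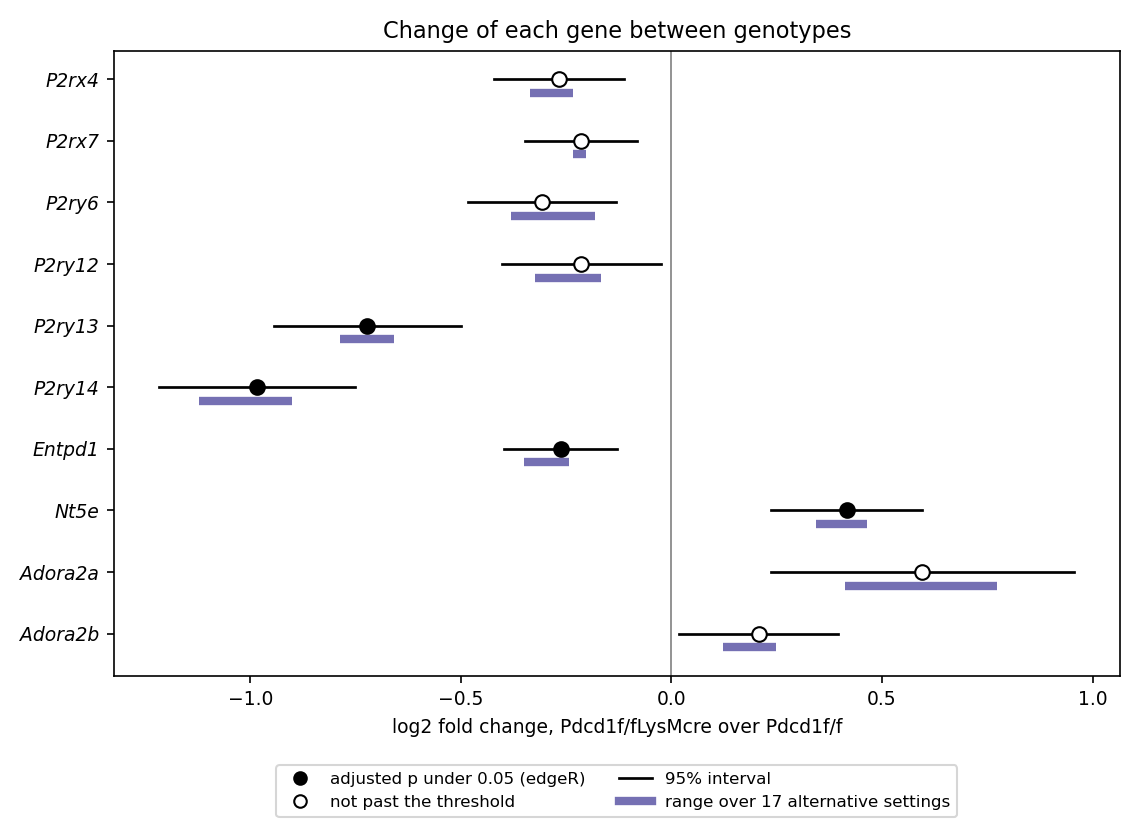
Log2 fold change of each gene between genotypes from edgeR. Filled points passed the adjusted p threshold of 0.05, black lines are 95% intervals and purple bars span 17 alternative settings. P2ry14 at −0.98 and P2ry13 at −0.72 lie farthest below 0, and no bar crosses 0.

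Genes around the receptors on chromosome 3 were examined as well. Gpr171, which encodes a G protein-coupled receptor and lies next to P2ry14, had 1632, 1625 and 1621 normalized counts in Pdcd1f/f and 858.6, 961 and 709.9 in Pdcd1f/fLysMcre. Its log2 fold change was −0.95 (SE 0.103, adjusted p = 0.000713, edgeR), close to that of P2ry14, and it passed in every setting tried. The share that passed over all genes tested was 5.43%, with 3.01% lower. Of the 12 genes tested within 1 Mb of P2ry13, 3 passed the threshold, all lower: Gpr171, P2ry14 and P2ry13. P2ry14 and P2ry13 are among the 10 genes, and P2ry13 is the centre of the window. This window, and the one around P2rx7 below, were chosen after the values were seen. Med12l, a Mediator subunit gene on the opposite strand, spans P2ry12, P2ry13 and P2ry14. It had 93.59 ± 8.12 and 61.09 ± 8.28 normalized counts (SD, n = 3), with a log2 fold change of −0.61 (adjusted p = 0.0809, edgeR). The library kit kept strand, but the strand setting of the counting is not given in the sources used here, so reads of Med12l and of the receptors cannot be told apart with certainty. Siah2, the nearest tested gene beyond Gpr171, had a log2 fold change of 0.03 (adjusted p = 0.855, edgeR). Against 5.43% of all genes tested (2.42% higher), 3 of the 40 tested within 1 Mb of P2rx7 on chromosome 5 passed, all higher. They were Camkk2, a calcium-dependent kinase gene beside P2rx4 (log2 fold change 0.30, adjusted p = 0.047, edgeR), Rhof (0.54, adjusted p = 0.0202) and Clip1 (0.32, adjusted p = 0.0327). Syncrip, which encodes an RNA-binding protein and lies near Nt5e, rose by 0.35 on the log2 scale (adjusted p = 0.0498, edgeR). Both Camkk2 and Syncrip passed in only 1 of 6 fits with a library left out.

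**Figure D4:**
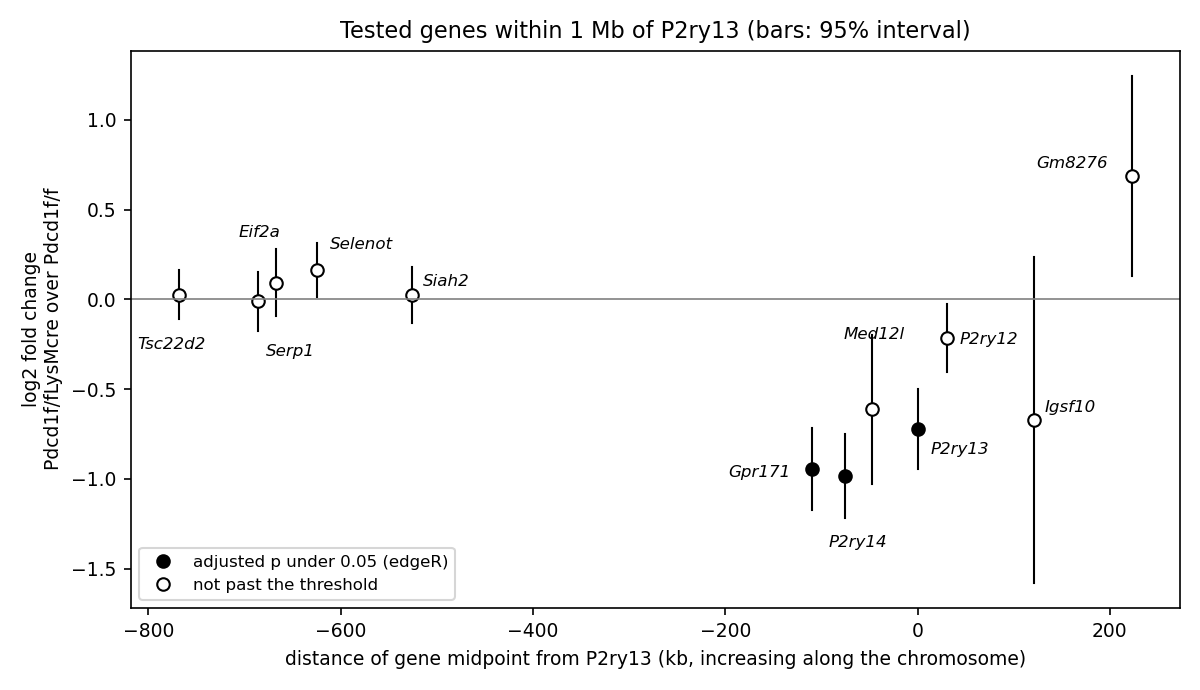
Log2 fold change of the 12 genes tested within 1 Mb of P2ry13, by the distance of each gene's midpoint from that of P2ry13 in kb. Filled points passed the adjusted p threshold of 0.05 in edgeR and bars are 95% intervals. Gpr171, P2ry14 and P2ry13 passed, at −0.95, −0.98 and −0.72. Igsf10 at −0.67, Med12l at −0.61 and Gm8276 at 0.69 did not pass, and P2ry12 lies nearer to 0 at −0.21.

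The ectonucleotidases changed in opposite directions. Entpd1 (CD39, chr19:40612366-40741602, plus strand), which breaks down ATP and ADP, had 10590, 10080 and 9846 normalized counts in the Pdcd1f/f libraries. It had 8488, 8748 and 8149 in the Pdcd1f/fLysMcre libraries, all below the lowest Pdcd1f/f library. Its log2 fold change was −0.26 (SE 0.06, 95% interval −0.40 to −0.13, adjusted p = 0.033, edgeR). This call depended on the full set of libraries. It was kept without Pdcd1f/f replicate 1 (adjusted p = 0.015, edgeR) and lost without any 1 of the other 5, with edgeR adjusted p = 0.151 without Pdcd1f/f replicate 2, 0.0714 without Pdcd1f/f replicate 3, 0.143, 0.0558 and 0.093 without Pdcd1f/fLysMcre replicates 1, 2 and 3. The log2 fold change itself stayed between −0.29 and −0.24 in these fits.

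Nt5e (CD73, chr9:88327197-88372092, plus strand), the enzyme that makes adenosine from AMP, had 2033, 2136 and 1909 normalized counts in Pdcd1f/f. It had 2518, 2953 and 2628 in Pdcd1f/fLysMcre, and every one of these was above the highest Pdcd1f/f library. The mean rose from 2026 ± 114 to 2700 ± 227 (SD, n = 3), a log2 fold change of 0.42 (SE 0.08, 95% interval 0.24 to 0.60, adjusted p = 0.0159, edgeR) or 1.33-fold. Nt5e passed the threshold in 14 of 17 alternative settings. The call was lost without Pdcd1f/f replicate 2, Pdcd1f/f replicate 3 or Pdcd1f/fLysMcre replicate 2 (adjusted p = 0.0508, 0.0649 and 0.0552, edgeR). Per length and within each library, Nt5e was at 0.125, 0.137 and 0.126 times the level of Entpd1 in Pdcd1f/f and at 0.192, 0.219 and 0.209 times in Pdcd1f/fLysMcre. This ratio was also chosen after the values were seen and is given as a description. Since these are bulk libraries, fewer cells that carry a transcript and less of it per cell cannot be told apart for any of the 10 genes.

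Promoters of both enzymes, over the same kind of window on the plus strand, are shown for comparison with the receptors, at chr19:40612116-40612415 for the more upstream of 2 Entpd1 starts and chr9:88327359-88327658 for Nt5e (RefSeq, GRCm38.p6). The Nt5e window lies wholly inside the GENCODE gene span given above, since RefSeq and GENCODE place its start differently. Neither window holds GAGGAA, so both are in lower case throughout.
Entpd1: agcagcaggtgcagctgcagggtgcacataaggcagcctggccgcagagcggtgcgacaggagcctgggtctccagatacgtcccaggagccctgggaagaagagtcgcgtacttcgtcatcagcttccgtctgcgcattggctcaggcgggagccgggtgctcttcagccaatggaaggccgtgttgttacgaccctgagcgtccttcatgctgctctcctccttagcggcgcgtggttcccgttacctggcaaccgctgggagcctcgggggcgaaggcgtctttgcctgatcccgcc
Nt5e: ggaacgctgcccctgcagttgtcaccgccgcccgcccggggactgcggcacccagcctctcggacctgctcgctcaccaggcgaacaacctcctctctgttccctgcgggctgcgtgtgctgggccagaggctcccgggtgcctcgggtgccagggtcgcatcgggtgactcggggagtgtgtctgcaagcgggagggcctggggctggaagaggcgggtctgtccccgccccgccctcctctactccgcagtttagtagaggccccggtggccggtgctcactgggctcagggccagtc
In contrast to the receptors on chromosome 3, these windows were rich in GC (64% for Entpd1 and 71% for Nt5e) with 23 CpG each. On both strands of the promoters of 8 of the 10 genes, 4 further motifs were searched, with some overlap between matches on opposite strands. GCGTG, one form of the core of the hypoxia response element, was in 5 of 8 (Entpd1, Nt5e, P2ry13, P2ry14 and Adora2b) and in 32.4% of all windows. ACGTG, the other form, was in P2ry12 alone and in 19.6% of all. TGACG, the short form of the cyclic AMP response element, was in Entpd1 and P2rx4 and in 20.8% of all. TGANTCA, the AP-1 site, was in P2ry14 and P2rx7 and in 7.81% of all.

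Both adenosine receptors were higher in every Pdcd1f/fLysMcre library, and neither passed the threshold. Adora2a (chr10:75316877-75334784, plus strand), the adenosine receptor of high affinity, had 157.6, 221.2 and 250.8 normalized counts in Pdcd1f/f and 310.9, 298.1 and 338.2 in Pdcd1f/fLysMcre. Pdcd1f/f replicate 1 was the lowest by far, which gave the group a coefficient of variation of 22.7%, against 6.49% in Pdcd1f/fLysMcre. This gave a log2 fold change of 0.60 (SE 0.16, 95% interval 0.24 to 0.96, adjusted p = 0.0613, edgeR), and without Pdcd1f/f replicate 1 it was 0.41 (adjusted p = 0.0395). Adora2a passed in 10 of 17 alternative settings, among them DESeq2 with Storey q-values (adjusted p = 0.0329) and the GC and length correction (log2 fold change 0.77, adjusted p = 0.000177, edgeR). Adora2b (chr11:62248984-62266453, plus strand), the adenosine receptor of low affinity, had 1210, 1426 and 1422 normalized counts in Pdcd1f/f and 1504, 1539 and 1632 in Pdcd1f/fLysMcre. Its log2 fold change was 0.21 (SE 0.09, 95% interval 0.02 to 0.40, adjusted p = 0.167, edgeR), and without Pdcd1f/f replicate 1 it was 0.12 (adjusted p = 0.279). It passed in 2 of 17 alternative settings, both with that correction (adjusted p = 0.0181 and, with the replicate block, 0.0115, edgeR).

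Beyond the 10 genes, 72 other genes of the pathway were listed by role, of which 60 could be tested. In edgeR 7 of the 60 passed the threshold, 3 higher and 4 lower, with a median log2 fold change of −0.013, against 5.43% of all genes. Fits that left out 1 library gave counts of 1 to 18, and 15 passed in DESeq2 with Benjamini-Hochberg adjustment, where 12.6% of all genes passed. Among other purine receptors none of 4 tested passed: P2ry2, the receptor for ATP and UTP, had 717.7 ± 141 and 662.1 ± 73 normalized counts (SD, n = 3), P2ry1 57.62 ± 13.8 and 60.59 ± 11.9, P2rx5 19.85 ± 4.39 and 31.66 ± 10.7, and Adora3 101.6 ± 19.2 and 103.8 ± 24.3. P2rx2, P2ry4 and Adora1 had no count in any library. At an unadjusted p under 0.05 the count among these 4 was 0 as well in edgeR, and DESeq2 called 0 with either adjustment.

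Of 10 other ectoenzymes tested, 1 rose and 2 fell past the threshold in edgeR, where 5.43% of all genes tested passed. Their median log2 fold change was −0.25. Cd38, an ectoenzyme that consumes NAD and feeds another route to adenosine, had 7366, 7011 and 7195 normalized counts in Pdcd1f/f and 4602, 5183 and 4353 in Pdcd1f/fLysMcre. It was thus lower in every Pdcd1f/fLysMcre library, with a log2 fold change of −0.61 (SE 0.073, adjusted p = 0.00122, edgeR), and it passed in 17 of 17 alternative settings. Bst1 (CD157), the neighbouring relative of Cd38, fell by 0.29 on the log2 scale (adjusted p = 0.0249, edgeR). Entpd7, an intracellular relative of CD39, rose by 0.25 (adjusted p = 0.0446, edgeR).

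None of 13 genes of adenosine uptake and metabolism passed the threshold in edgeR, where 5.43% of all genes tested did. Their median log2 fold change was −0.006. At an unadjusted p under 0.05 there were 2 in edgeR, and DESeq2 called 1 with Benjamini-Hochberg adjustment, Ada, and 0 with Storey q-values. The nearest in edgeR was Ada, adenosine deaminase, with 539.8 ± 25 and 425 ± 6.06 normalized counts (SD, n = 3) and a log2 fold change of −0.34 (adjusted p = 0.0549, edgeR). Adk, adenosine kinase, had a log2 fold change of −0.01 (95% interval −0.19 to 0.18). Among 9 ATP release channels tested, Lrrc8c and Lrrc8d, subunits of the volume-regulated anion channel, rose by 0.36 and 0.29 (adjusted p = 0.0154 and 0.0192, edgeR). Lrrc8a and Lrrc8b, also subunits of that channel, did not pass, with log2 fold changes of 0.04 and 0.27 (adjusted p = 0.887 and 0.0786, edgeR). Calhm2 fell by 0.60 on the log2 scale (adjusted p = 0.0297, edgeR), and Panx1, the pannexin channel, had a log2 fold change of 0.06 (adjusted p = 0.669). Of 24 genes that couple these receptors to cyclic AMP and calcium, 1 passed in edgeR, where 5.43% of all genes tested did. DESeq2 called 5 of the 24 with Benjamini-Hochberg adjustment (12.6% of all genes) and 3 with Storey q-values (4.17%). The 1 gene in edgeR was Adcy3, an adenylyl cyclase, with 5124 ± 390 and 3752 ± 286 normalized counts (SD, n = 3). It fell by 0.45 on the log2 scale (adjusted p = 0.0098, edgeR). Gnas, which encodes the Gs alpha subunit used by both adenosine receptors, had 12680 ± 205 and 12670 ± 202 normalized counts, and its log2 fold change was 0.001 (95% interval −0.12 to 0.13). Of the 7 pathway genes that passed, Cd38 passed in all 6 fits with 1 library left out, Adcy3 in 4, Bst1, Lrrc8c and Calhm2 in 2, and Entpd7 and Lrrc8d in 1.

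**Figure D5:**
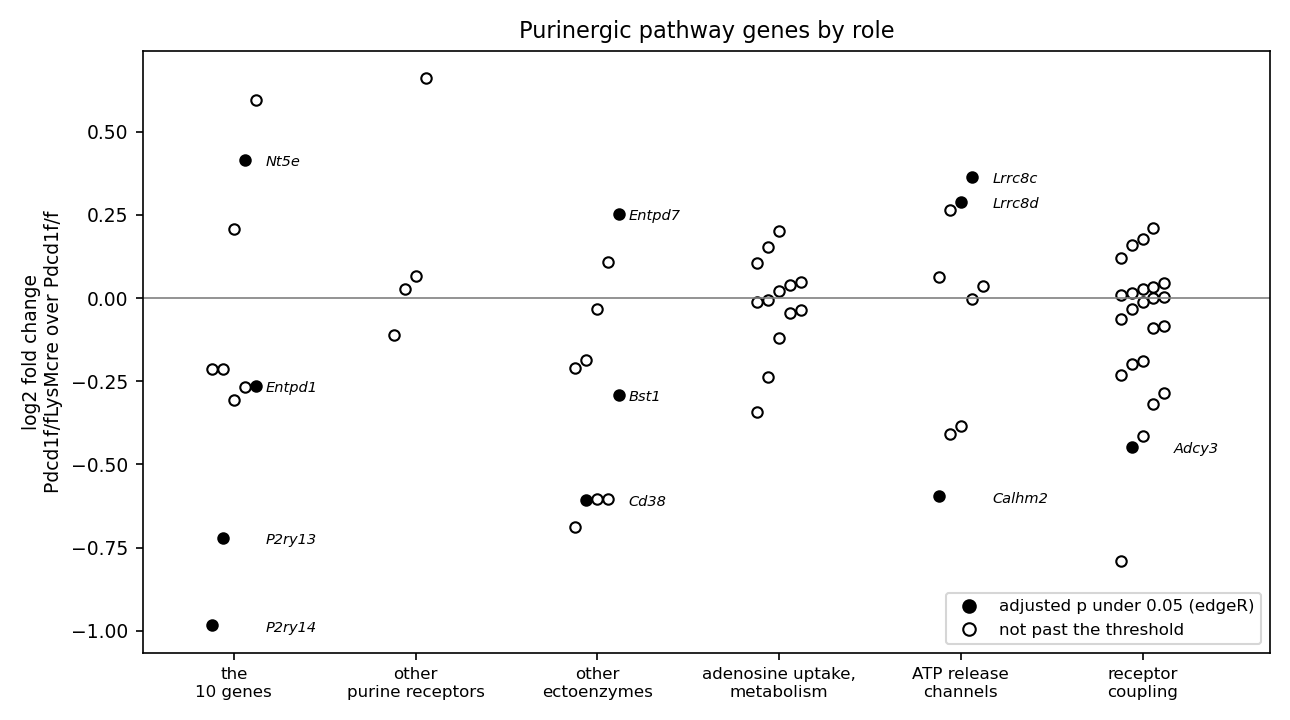
Log2 fold changes of all tested genes of the pathway, grouped by role, with 1 point per gene. Filled points passed the adjusted p threshold of 0.05 in edgeR and are named. Among these groups the 10 genes have the widest range, from −0.98 to 0.60. Of 13 genes of adenosine uptake and metabolism 0 passed, against 5.43% of all genes tested.

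For P2ry13, Entpd1 and Nt5e, which passed the threshold, the 3 genes with the most similar pattern were taken by Pearson's r of log2(normalized count + 1) over all 6 libraries, both genotypes together. For P2ry13 these were Selenop, Vcam1 and Cd38 (r between 0.9954 and 0.9985). For Entpd1 they were Ms4a6b, Rasgef1b and March1 (0.9968 to 0.9985), and for Nt5e Tnpo3, Gm10095 and Lias (0.993 to 0.9974). Between 176 and 213 tested genes had r above 0.95 with each of them, so these names are the top of long lists over points that fall into 2 genotypes.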

How the data were processed

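RNA was isolated from sorted TAMs, and 400 ng per sample entered a stranded mRNA library kit with paired-end reads of 42 nt. According to the submitters' processing notes and the methods of the study, the authors used FastQC 0.11.5, cutadapt 2.5, STAR 2.7.3a, featureCounts of Subread 1.6.2 and GRCm38. Strand setting and treatment of multi-mapped reads are not given in the sources used here. The deposited raw counts hold 1 column per library. The deposited normalized signal equals these counts divided by 1 DESeq2 (1.24.0) size factor per library, between 0.895 and 1.08, and covers 16552 genes.

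Groups came from the labels. edgeR 4.0.16 (R 4.3.3) was run on the raw counts of all 6 libraries with filterByExpr (minimum count 10, minimum total 15), TMM, robust glmQLFit and the two-sided glmQLFTest, with Benjamini-Hochberg adjustment over 14469 genes and a threshold of 0.05. SE came from the log2 fold change and F. The script was tested on simulated data. FPKM was computed from raw counts and exon lengths. Positions and lengths came from GENCODE M21 (GRCm38), whereas the study counted on Ensembl v98. Promoters came from RefSeq (GRCm38.p6) and matched 8 of the 10 genes. Figures were drawn with matplotlib 3.10.9.

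The 10 genes and all lists were chosen with earlier results of these data known. Named genes are the 10, listed pathway and neighbour genes past the threshold, label checks, and the 3 closest patterns for each called gene, which for P2ry14 are not reported here. Others (Med12l, Igsf10, Gm8276, Siah2, Rhof, Clip1, Pecam1, Col1a2, Csf3r, Ada, Adk, Gnas, Panx1, Lrrc8a, Lrrc8b, P2ry1, P2ry2, P2rx2, P2rx5, P2ry4, Adora1 and Adora3) were named after their values were seen. Alternatives were other normalizations and filters, DESeq2 1.42.0, a replicate block, offsets for GC content and length, and libraries left out.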

Additional observations from a re-analysis of the deposited data

How the results depend on the processing

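All 10 genes kept their direction in 17 of 17 alternative settings, and P2ry13, P2ry14, Cd38 and Gpr171 passed the threshold in each. Counts of calls moved more. Out of all genes, 786 passed in edgeR, against 1951 with all genes of at least 1 count, 1533 in DESeq2 with Benjamini-Hochberg adjustment, 2610 with GC and length offsets, 3757 with both libraries that stand apart left out, and 1766 in DESeq2 with Storey q-values over the genes of the normalized table, an alternative chosen after seeing the data. Of the 10 genes, 4 passed in edgeR, 7 with library size alone (5.58% of all genes) or with all genes of at least 1 count (7.32%), 8 in each of 3 DESeq2 versions (12.6% with Benjamini-Hochberg adjustment, 4.17% with Storey q-values, 10.7% with Storey q-values over the normalized table), 10 with GC and length offsets (18.1%) and 9 without both libraries that stand apart (26.2%). Of the other pathway genes, 7 passed in edgeR, 14 with all genes of at least 1 count, 15 in DESeq2 (Benjamini-Hochberg, or Storey over the genes of the normalized table), 17 with the offsets and 18 without both libraries. Leaving out 1 library at a time gave 222 to 3181 genes, 2 to 8 of the 10 genes and 1 to 18 other pathway genes. The highest counts were without Pdcd1f/f replicate 1, and the cause was not tested.

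Deviations of same-numbered libraries from their genotype means had correlations of −0.014, −0.092 and 0.2. These deviations also carry the differences in GC content given above, so they cannot decide whether replicate numbers mark libraries handled together. With the replicate number as a block, 1027 genes, 6 of the 10 genes and 8 other pathway genes passed, and with the block and the offsets together 2656, 10 and 17.

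Pdcd1, with at most 16 counts in a library, had a 95% interval of −1.24 to 0.74 for its log2 fold change at this depth.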
